A study of Homo sapiens with 26 samples.

Results

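The genes of the integrins and laminins were examined for binding of FOXA1, of 3 FOXA1 variants and of HNF4A in human fibroblasts. Members were the autosomal protein-coding genes whose symbols begin with ITGA, ITGB, LAMA, LAMB or LAMC and end in the short subunit number or letter. They numbered 39 of the 19229 autosomal protein-coding genes in the GENCODE 44 annotation lifted to GRCh37, with 27 integrin and 12 laminin symbols. A peak was counted for a gene when it overlapped the gene body or the 20 kb on either side, which together are called the window. The symbol pattern also took in ITGBL1, which encodes a secreted integrin-like protein and no receptor subunit, and it is described separately.

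Binding had been measured by chromatin immunoprecipitation and sequencing (ChIP-seq) in BJ, a long-used fibroblast line from human foreskin. Every protein carried the HALO tag, was made ectopically for 48 hours and was precipitated through the tag. The 5 groups were cells given FOXA1, a forkhead transcription factor, cells given FOXA1dbd, FOXA1nhaa or FOXA1rraa, 3 variants whose names the labels do not expand, and cells given HNF4A, a nuclear receptor transcription factor. The labels list 26 samples, with 2 ChIP and 2 input libraries per construct, and the H2B libraries among them were not analysed here. All groups share 1 cell line, and the proteins were supplied to the cells, so the peaks describe ectopic binding. The lists hold no expression values, so neither the labelled cell type nor expression of any member was checked against markers.

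The authors' peak lists, 1 per construct, were the only measurement, so differences between constructs cannot be set against replicate error and were not tested. Shares carry Wilson intervals at 95%. These reflect the counting of peaks or genes alone, and neighbouring peaks are not independent. Read depth behind the lists is unknown, and a window without a peak is a window in which none was listed. On chromosomes 1 to 22 the lists held 153247 FOXA1, 28707 FOXA1dbd, 104757 FOXA1nhaa, 70442 FOXA1rraa and 37867 HNF4A peaks, so raw counts are not comparable between lists without these totals. The score given with a peak is the authors' and serves only to rank peaks within a list. Of the 271 FOXA1rraa peaks at the members, 168 had the coordinates of a FOXA1nhaa row and 83 the coordinates of a FOXA1 row. Overlaps of FOXA1rraa with those lists therefore include shared rows. The highest-scoring FOXA1rraa peak at the members carries the score of its FOXA1nhaa row. Scores and ranks in the FOXA1rraa list may therefore be those of other lists. The other 20 FOXA1rraa peaks at the members had names that begin with Nonspecific_FOX, a prefix the labels do not explain. In the FOXA1 list 55 of the 536 rows at the members shared a peak name with another row there, so some rows are pieces of a wider call.

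Integrins are cell-surface receptors made of an alpha and a beta chain. They bind collagens, laminins, fibronectin or other cells outside and join the actin cytoskeleton inside through talin, kindlin and vinculin at focal adhesions. Laminins are secreted trimers of an alpha, a beta and a gamma chain that form the sheet-like core of basement membranes and are ligands of several integrins. Fibroblasts attach to and pull on their matrix through integrins. Forkhead proteins such as FOXA1 bind sites with the core TGTTTAC or TATTTAC, and FOXA1 is known for binding in closed chromatin.

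The sequences below are the central 200 bp of the peaks on which the description turns, from GRCh37 (hg19), plus strand, written 5′ to 3′. The centre of a peak was its listed summit (the point of highest signal) where the list gave it, and its midpoint otherwise. FOXA1 peaks were centred on their midpoints. Core shares and start-site counts of FOXA1 and of the other lists therefore rest on differently defined centres. Capitals mark a forkhead core (TATTTAC or TGTTTAC), an HNF4 core (CAAAGTCCA) or an AP-1 core (TGACTCA or TGAGTCA) on either strand, so GTAAACA is a forkhead core read on the minus strand. AP-1 is the Fos and Jun family of transcription factors, abundant in fibroblasts. None of the windows touches an annotated exon. For each class of peak the highest-scoring member peak with a forkhead core is shown. The upstream ITGA4 site is the highest-scoring FOXA1 peak at the members (score 702) and was also listed for all 3 variants. The ITGA8 site was listed for FOXA1 and no variant. The upstream ITGBL1 site was listed for FOXA1 and HNF4A, the ITGAE site for FOXA1dbd, the intronic ITGBL1 site for FOXA1nhaa and the LAMA3 site for FOXA1nhaa outside FOXA1 peaks. The remaining 5 were chosen after their values were seen: the sole FOXA1dbd peak outside FOXA1 peaks (ITGA11), the highest-scoring HNF4A peak (LAMB2), the highest-scoring start-site peaks of FOXA1 (LAMA4) and of HNF4A (LAMA5), and a FOXA1 and HNF4A start-site peak of ITGB5 that no variant overlapped. The LAMA4 and ITGB5 peaks lie 702 and 282 bp from annotated starts inside the gene, far from its 5′ end.
ITGA4 upstream, chr2:182308597-182308796: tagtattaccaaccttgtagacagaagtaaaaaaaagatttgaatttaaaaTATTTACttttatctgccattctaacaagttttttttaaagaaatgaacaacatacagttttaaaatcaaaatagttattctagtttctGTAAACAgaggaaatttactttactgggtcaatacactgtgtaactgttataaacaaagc
ITGA8 upstream, chr10:15765386-15765585: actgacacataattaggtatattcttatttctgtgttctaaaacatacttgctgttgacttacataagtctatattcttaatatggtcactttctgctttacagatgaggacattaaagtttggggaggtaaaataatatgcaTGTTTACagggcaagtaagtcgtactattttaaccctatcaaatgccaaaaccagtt
ITGBL1 upstream, chr13:102102667-102102866: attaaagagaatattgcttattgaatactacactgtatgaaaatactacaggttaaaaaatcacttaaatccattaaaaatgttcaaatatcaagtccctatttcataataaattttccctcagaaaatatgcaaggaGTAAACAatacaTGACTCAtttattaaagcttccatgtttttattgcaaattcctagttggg
ITGAE upstream, chr17:3722125-3722324: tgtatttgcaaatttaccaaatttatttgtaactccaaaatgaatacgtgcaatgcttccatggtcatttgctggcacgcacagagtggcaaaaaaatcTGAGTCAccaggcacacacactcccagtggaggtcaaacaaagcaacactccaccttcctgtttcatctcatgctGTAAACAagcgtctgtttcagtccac
ITGBL1 intron, chr13:102229379-102229578: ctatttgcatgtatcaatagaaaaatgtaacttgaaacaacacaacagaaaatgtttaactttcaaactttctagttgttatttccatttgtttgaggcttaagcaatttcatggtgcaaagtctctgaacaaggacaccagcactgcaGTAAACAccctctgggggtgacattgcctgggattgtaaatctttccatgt
LAMA3 intron, chr18:21295526-21295725: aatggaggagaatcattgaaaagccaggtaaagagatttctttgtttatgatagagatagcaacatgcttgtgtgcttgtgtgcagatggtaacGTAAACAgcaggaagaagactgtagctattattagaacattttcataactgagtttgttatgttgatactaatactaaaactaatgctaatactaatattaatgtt
ITGA11 intron, chr15:68675050-68675249: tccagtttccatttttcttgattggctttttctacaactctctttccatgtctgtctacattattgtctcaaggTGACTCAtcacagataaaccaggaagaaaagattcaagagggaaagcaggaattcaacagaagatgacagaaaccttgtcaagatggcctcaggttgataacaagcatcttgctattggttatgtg
LAMB2 upstream, chr3:49173087-49173286: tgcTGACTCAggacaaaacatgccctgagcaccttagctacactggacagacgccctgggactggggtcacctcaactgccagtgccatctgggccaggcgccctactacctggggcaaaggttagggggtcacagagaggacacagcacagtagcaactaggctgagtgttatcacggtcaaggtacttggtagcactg
LAMA4 start site, chr6:112459676-112459875: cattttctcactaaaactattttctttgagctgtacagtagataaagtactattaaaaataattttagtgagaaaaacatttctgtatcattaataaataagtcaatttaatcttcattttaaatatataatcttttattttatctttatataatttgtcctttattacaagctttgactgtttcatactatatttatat
LAMA5 start site, chr20:60941697-60941896: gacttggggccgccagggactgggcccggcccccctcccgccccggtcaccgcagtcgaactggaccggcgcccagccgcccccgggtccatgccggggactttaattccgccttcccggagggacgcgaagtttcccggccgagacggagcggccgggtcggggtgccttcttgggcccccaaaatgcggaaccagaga
ITGB5 start site, chr3:124552049-124552248: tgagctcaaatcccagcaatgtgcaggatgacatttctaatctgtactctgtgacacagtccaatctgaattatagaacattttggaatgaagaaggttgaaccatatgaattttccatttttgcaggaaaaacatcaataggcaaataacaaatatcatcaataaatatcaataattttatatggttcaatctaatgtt

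Base composition ranged widely among these sequences. The LAMA4 start-site window is 19.5% G or C and the ITGA4 window 25.5%, while the HNF4A window at LAMB2 is 57.0% and that at LAMA5 72.5%. These windows were picked, and the GC content of whole gene windows is described further below. Some of the windows low in G or C also had an HNF4A peak. The upstream ITGBL1 window (27%) and the ITGB5 window (31%) were also listed for HNF4A. The FOXA1dbd windows at ITGAE and ITGA11 are 43% and 39%. The ITGA4 window holds 2 forkhead cores, and the upstream ITGBL1 and ITGAE windows hold a forkhead and an AP-1 core each. The LAMA4, LAMA5 and ITGB5 windows hold none of the cores searched. A match is a description of letters and does not show which protein was bound there.

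FOXA1 peaks were listed at 30 of the 39 genes (76.9%), against 77.2% of all autosomal protein-coding genes. FOXA1dbd peaks were listed at 23 members (59.0%, against 47.2% of all genes), FOXA1nhaa peaks at 31 (79.5%, against 70.8%) and FOXA1rraa peaks at 25 (64.1%, against 62.9%). HNF4A peaks were listed at 35 members (89.7%, against 77.4%). The interval of each of these 5 shares included the share over all genes. The members' windows are longer than usual, with a median of 122 kb against 67.6 kb over all genes, and a longer window can hold a peak more easily. Their median GC content was 44.5%, against 44.6% over all genes.

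Counted per length, 536 FOXA1 peaks lay in the 5.78 Mb covered by the members' windows, or 9.28 per 100 kb, against 7.38 in the windows of all genes. The 116 FOXA1dbd peaks came to 2.01 per 100 kb (1.32 in all gene windows), the 379 FOXA1nhaa peaks to 6.56 (4.91) and the 271 FOXA1rraa peaks to 4.69 (3.41). The 162 HNF4A peaks came to 2.80 per 100 kb (2.01). All 5 pooled densities were thus 1.26 to 1.53 times those of all gene windows. Counting per length does not level long and short windows. The Spearman correlation of window length with FOXA1 peaks per 100 kb was 0.61 across the members and 0.35 across all genes. The part of window length in the higher densities was not tested. For FOXA1 the median member had 4.1 peaks per 100 kb and the median gene 4.0, and 21 of the 39 members lay above that gene median. For the variants the medians lay further apart, at 1.37 against 0 for FOXA1dbd, 3.95 against 2.41 for FOXA1nhaa and 2.93 against 1.76 for FOXA1rraa. For HNF4A they were 2.85 and 2.34. A few genes carried most of the FOXA1 peaks: the 10 members with the most held 73.0% of the 541 pairs of a peak and a gene. The 10 highest HNF4A counts made up 45.7% of the HNF4A pairs.

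**Figure D1:**
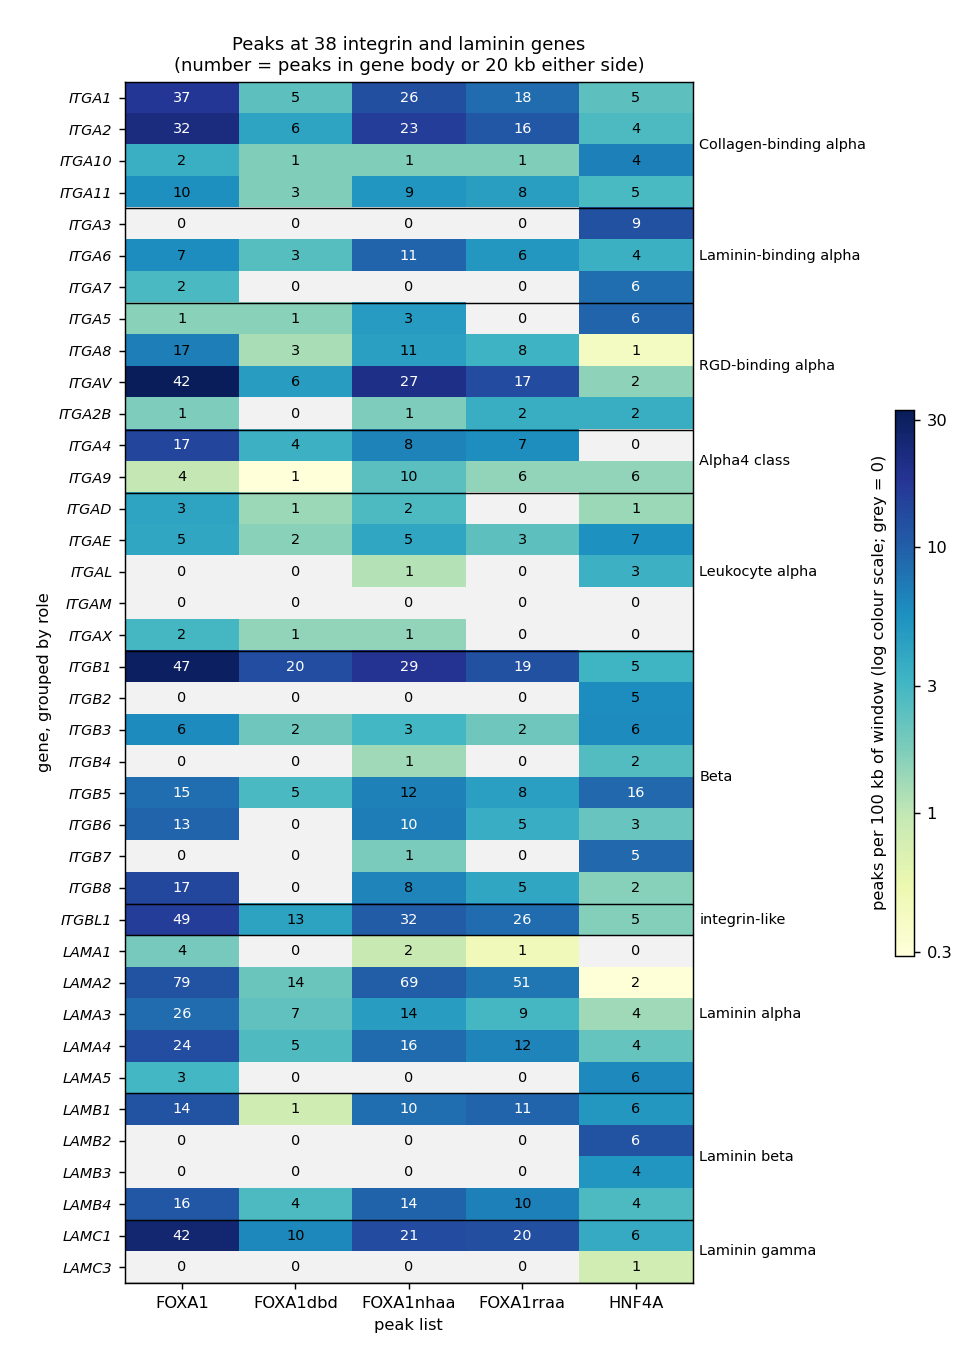
Number of listed peaks in the window of each of 38 of the genes (rows, grouped by role) in the 5 lists (columns), with colour giving peaks per 100 kb of window on a log scale and grey marking 0. FOXA1 counts run from 0 to 79 (LAMA2), HNF4A counts from 0 to 16 (ITGB5), and 5 genes have peaks in the HNF4A column alone.

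Among the collagen-binding alpha chains, ITGA1 and ITGA2 had over 30 FOXA1 peaks each and ITGA10 and ITGA11 had 10 or fewer. ITGA1 (chr5:52083750-52255039, plus strand) encodes the alpha chain of a collagen receptor of fibroblasts and smooth muscle and had 37 FOXA1, 5 FOXA1dbd, 26 FOXA1nhaa, 18 FOXA1rraa and 5 HNF4A peaks. Its neighbour ITGA2 (chr5:52285170-52390609, plus strand), the alpha chain of the platelet and epithelial collagen receptor, had 32, 6, 23, 16 and 4 in the same order. The 2 genes lie 30.1 kb apart and shared no peak. Per length, ITGA2 had 22 and ITGA1 17.5 FOXA1 peaks per 100 kb. ITGA11 (chr15:68588870-68724502, minus strand), a collagen receptor chain of fibroblasts, had 10 FOXA1 peaks (5.69 per 100 kb), 3 FOXA1dbd, 9 FOXA1nhaa, 8 FOXA1rraa and 5 HNF4A peaks. Of its FOXA1 peaks, 2 overlapped the gene body. ITGA10, the alpha chain of a cartilage collagen receptor, had 2 FOXA1 and 4 HNF4A peaks.

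The laminin-binding alpha chains had 7 FOXA1 peaks or fewer each. ITGA3 (chr17:48133332-48167845, plus strand), the alpha chain of a main epithelial laminin receptor, had no peak of FOXA1 or of any variant and 9 HNF4A peaks, or 12.1 HNF4A peaks per 100 kb, the highest HNF4A density among the members. Of those 9, 4 had their centre within 1 kb of 1 of the gene's 16 annotated transcription starts, and their scores ran from 41 to 226. ITGA6 (chr2:173292082-173371187, plus strand), which pairs with ITGB4 in hemidesmosomes, had 7 FOXA1, 3 FOXA1dbd, 11 FOXA1nhaa, 6 FOXA1rraa and 4 HNF4A peaks. It was 1 of 6 members with fewer FOXA1 than FOXA1nhaa peaks, the others being ITGA5, ITGA9, ITGAL, ITGB4 and ITGB7. The share of all genes with this order was not computed. ITGA7, the laminin receptor chain of muscle, had 2 FOXA1 peaks, none for the variants and 6 HNF4A peaks, 3 of which lay at the start of another gene and not at its own.

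Among the chains that bind the RGD sequence of fibronectin and vitronectin, ITGAV (chr2:187454737-187545628, plus strand) had 42 FOXA1, 6 FOXA1dbd, 27 FOXA1nhaa, 17 FOXA1rraa and 2 HNF4A peaks. Its 32.1 FOXA1 peaks per 100 kb were the highest density of any member. The ITGAV protein pairs with several beta chains and takes part in activating latent TGF-beta. Both ITGAV HNF4A peaks lay at its start sites, and its FOXA1dbd peak chr2:187455795-187456136, 908 bp from an annotated start, was overlapped by peaks of the 4 other lists. ITGA8, a chain of kidney and smooth muscle, had 17 FOXA1, 3 FOXA1dbd, 11 FOXA1nhaa, 8 FOXA1rraa and 1 HNF4A peaks, or 6.91 FOXA1 peaks per 100 kb. ITGA5, the alpha chain of the classical fibronectin receptor, had 1 FOXA1, 1 FOXA1dbd, 3 FOXA1nhaa, 0 FOXA1rraa and 6 HNF4A peaks. Its FOXA1dbd peak (score 54, with a forkhead core) lay 506 bp from an annotated start. ITGA2B, the platelet fibrinogen receptor chain, had 1 FOXA1 and 2 HNF4A peaks. ITGAV and ITGA5, both chains of fibronectin receptors, thus had opposite orders of FOXA1 and HNF4A counts, with windows of 36.8% and 51.2% GC.

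The alpha4 class differed within itself. ITGA4 (chr2:182321929-182403667, plus strand), the alpha chain of a receptor for VCAM1 and fibronectin on leukocytes, had 17 FOXA1, 4 FOXA1dbd, 8 FOXA1nhaa and 7 FOXA1rraa peaks and no HNF4A peak. The highest-scoring FOXA1 peak at the members, chr2:182308419-182308974, lay in its upstream flank, 13232 bp from the start. A row of the same peak name and score, chr2:182307955-182308286, was overlapped by no variant. ITGA9 (chr3:37493606-37864998, plus strand), a chain of the tenascin receptor, had 4 FOXA1, 1 FOXA1dbd, 10 FOXA1nhaa, 6 FOXA1rraa and 6 HNF4A peaks in a window of 411 kb. Its 0.972 FOXA1 peaks per 100 kb were the lowest density among members with any, and 8 of its 10 FOXA1nhaa peaks lay outside FOXA1 peaks.

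The alpha chains of leukocyte integrins are not typical fibroblast genes. ITGAM, the alpha chain of the main phagocyte integrin, had no peak in any list and was the sole such member. ITGAL, the lymphocyte chain that binds ICAM1, had 1 FOXA1nhaa and 3 HNF4A peaks, and all 3 HNF4A peaks lay outside its gene body. ITGAE, the chain of the integrin that binds E-cadherin, had 5 FOXA1, 2 FOXA1dbd, 5 FOXA1nhaa, 3 FOXA1rraa and 7 HNF4A peaks. The ITGAE sequence shown lies within the neighbouring gene NCBP3. ITGAD and ITGAX, chains of myeloid integrins 10.3 kb apart, had 3 and 2 FOXA1 peaks, of which they shared 2. They also shared their FOXA1dbd peak and 1 FOXA1nhaa peak, so these are not separate observations.

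ITGB1 stood first among the beta chains. ITGB1 (chr10:33176201-33294720, minus strand), the partner of most alpha chains listed here, had 47 FOXA1, 20 FOXA1dbd, 29 FOXA1nhaa, 19 FOXA1rraa and 5 HNF4A peaks. It had more FOXA1dbd peaks than any other member, at 12.6 per 100 kb, and it was 1 of 4 members with more FOXA1dbd than FOXA1rraa peaks. The share of all genes with that order was not computed. All 20 FOXA1dbd peaks overlapped FOXA1 peaks, their scores ran from 26 to 81, and 5 had their centre within 1 kb of 1 of the gene's 25 annotated starts. ITGB8, which activates latent TGF-beta together with ITGAV, had 17 FOXA1, 0 FOXA1dbd, 8 FOXA1nhaa, 5 FOXA1rraa and 2 HNF4A peaks. ITGB6, the epithelial chain with the same activity, had 13, 0, 10, 5 and 3. ITGB8 and ITGB6 were thus the members with the most FOXA1 peaks among those without a FOXA1dbd peak. At ITGB8 11 of the 17 FOXA1 peaks (64.7%) were overlapped by no variant.

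ITGB5 (chr3:124480795-124620265, minus strand), a vitronectin receptor chain, was the member with the most HNF4A peaks. It had 15 FOXA1, 5 FOXA1dbd, 12 FOXA1nhaa, 8 FOXA1rraa and 16 HNF4A peaks. All 16 HNF4A peaks overlapped the gene body, 5 lay at start sites, and their scores ran from 57 to 449. HNF4A peaks overlapped 5 of its 15 FOXA1 peaks, and the highest-scoring of the HNF4A peaks, chr3:124597491-124598368, was overlapped by peaks of all 4 other lists. ITGB3, a beta chain of platelets and osteoclasts and a partner of ITGAV, had 6 FOXA1 and 6 HNF4A peaks. The other beta chains had no FOXA1 peak: ITGB2, the leukocyte chain, ITGB4, the hemidesmosome chain, and ITGB7, a lymphocyte chain. ITGB2 had 5 HNF4A peaks and ITGB7 had 5, none of them in the gene body, and ITGB4 had 2 HNF4A peaks, both in the gene body. ITGB4 and ITGB7 had 1 FOXA1nhaa peak each.

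ITGBL1 (chr13:102104944-102373206, plus strand) had 49 FOXA1, 13 FOXA1dbd, 32 FOXA1nhaa, 26 FOXA1rraa and 5 HNF4A peaks, or 15.9 FOXA1 peaks per 100 kb. The highest-scoring FOXA1nhaa peak at the members was its intronic peak chr13:102229189-102229751 (score 652, fold enrichment 19.6). The same row stands in the FOXA1rraa list.

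**Figure D2:**
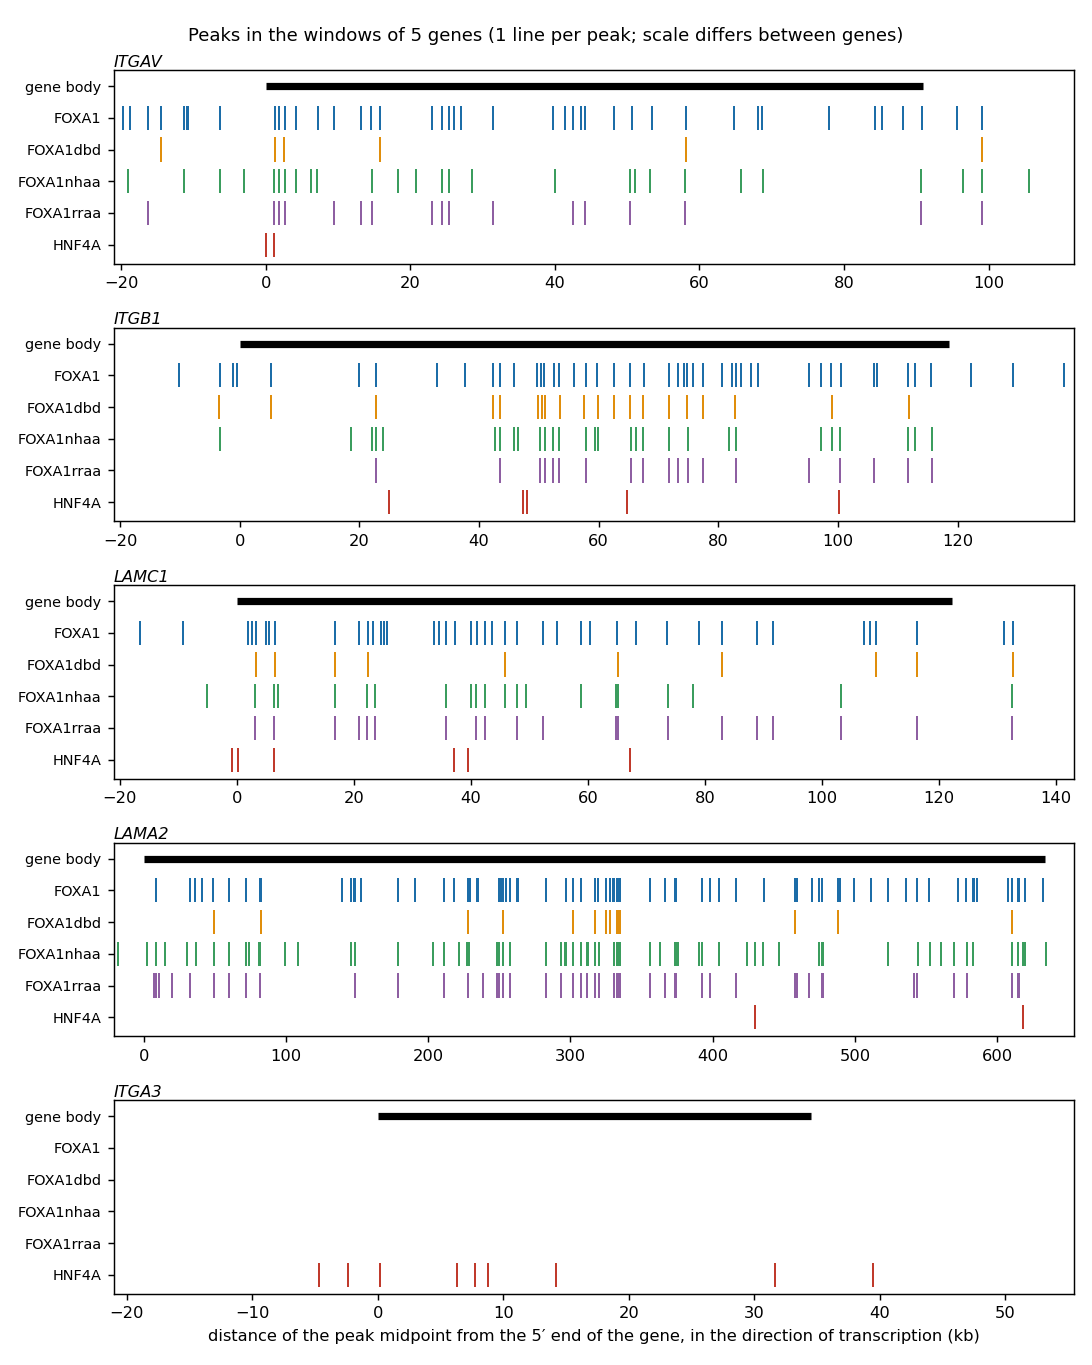
Midpoints of listed peaks (1 line per peak) along the windows of ITGAV, ITGB1, LAMC1, LAMA2 and ITGA3, by distance from the gene's 5′ end in kb in the direction of transcription, with the gene body as a black bar and 1 row per list. FOXA1 lines run through the bodies of the 4 upper genes (42, 47, 42 and 79 peaks), and ITGA3 has HNF4A lines alone (9 peaks).

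Of the laminin alpha chains, LAMA2, LAMA3 and LAMA4 carried many FOXA1 peaks and LAMA1 and LAMA5 few. LAMA2 (chr6:129204283-129837711, plus strand), the chain of muscle and nerve basement membranes, had 79 FOXA1, 14 FOXA1dbd, 69 FOXA1nhaa, 51 FOXA1rraa and 2 HNF4A peaks, the most FOXA1 peaks of any member in the longest window, 673 kb. Per length it had 11.7 FOXA1 peaks per 100 kb. It also held the highest-scoring FOXA1dbd peak at the members, an intronic peak at chr6:129521306-129521675 (score 210), and the highest-scoring FOXA1nhaa peak outside FOXA1 peaks, chr6:129234480-129234910 (score 318). LAMA4 (chr6:112429134-112576141, minus strand), the chain of vessel, fat and muscle basement membranes, had 24, 5, 16, 12 and 4 peaks (12.8 FOXA1 peaks per 100 kb). Its FOXA1 peaks included 5 at start sites and the highest-scoring FOXA1 peak that an HNF4A peak overlapped, chr6:112543664-112544272 (score 465). LAMA3 (chr18:21269417-21536186, plus strand), the epidermal chain, had 26, 7, 14, 9 and 4 peaks. None of the 26 LAMA3 FOXA1 peaks held a forkhead core, and 0 of 26 allows a share of up to 11.5% by a limit of 3 counts. LAMA3 was singled out for this after its values were seen.

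LAMA1 and LAMA5 differed in their other lists. LAMA1, the chain of the early embryo and kidney, had 4 FOXA1, 0 FOXA1dbd, 2 FOXA1nhaa, 1 FOXA1rraa and 0 HNF4A peaks in a window of 216 kb. LAMA5 (chr20:60883011-60942368, minus strand), the most widespread adult chain, had 3 FOXA1 peaks, none for the variants and 6 HNF4A peaks. Its window had the highest GC content of the members, 60.3%. Its start-site HNF4A peak chr20:60941586-60942132 (score 576) was the highest-scoring HNF4A start-site peak at the members.

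The laminin beta chains split into pairs. LAMB1 (chr7:107564244-107643658, minus strand), the most widespread beta chain, had 14 FOXA1, 1 FOXA1dbd, 10 FOXA1nhaa, 11 FOXA1rraa and 6 HNF4A peaks. LAMB4, its neighbour 20.3 kb away, had 16, 4, 14, 10 and 4. The windows of LAMB1 and LAMB4 shared 3 FOXA1, 1 FOXA1dbd, 3 FOXA1nhaa and 3 FOXA1rraa peaks, and 4 of the LAMB1 FOXA1 peaks overlapped its gene body. LAMB2 (chr3:49158547-49170551, minus strand), the chain of neuromuscular and kidney basement membranes, had no peak of FOXA1 or a variant and 6 HNF4A peaks, or 11.5 per 100 kb. The LAMB2 peak chr3:49173009-49173459, 2636 bp from the nearest annotated start, had the highest HNF4A score at the members (1145, fold enrichment 29.5) and an AP-1 core. LAMB3, an epidermal chain, had 4 HNF4A peaks and no other.

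Among the gamma chains LAMC1 (chr1:182992555-183114727, plus strand), part of most laminins, had 42 FOXA1, 10 FOXA1dbd, 21 FOXA1nhaa, 20 FOXA1rraa and 6 HNF4A peaks, or 25.9 FOXA1 peaks per 100 kb. LAMC3 had 1 HNF4A peak, outside its gene body, and no other. The chains LAMA4, LAMB1 and LAMC1, which form a trimer of vessel walls, had 24, 14 and 42 FOXA1 peaks.

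**Figure D3:**
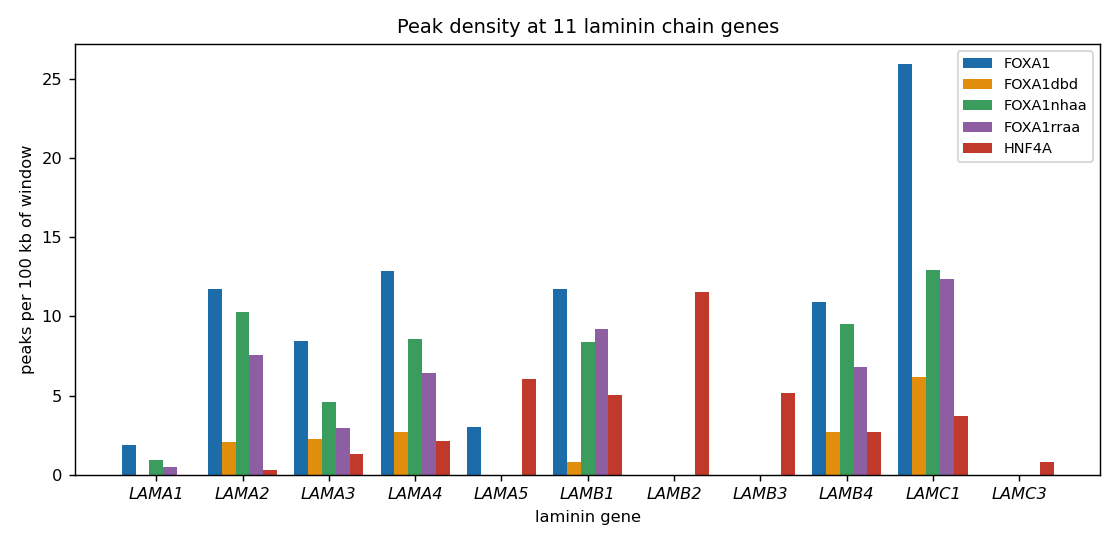
Listed peaks per 100 kb of window at 11 laminin chain genes, 1 bar per list. LAMC1 has the tallest FOXA1 bar (25.9) and LAMB2 the tallest HNF4A bar (11.5) with no bar of any other list.

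Taking all members, 19 had a peak in each of the 5 lists (48.7%, interval 33.9 to 63.8), against 36.7% of all genes. HNF4A peaks alone were listed at 5 members (ITGA3, ITGB2, LAMB2, LAMB3 and LAMC3, 12.8%), against 10.4%. HNF4A peaks without a FOXA1 peak were found at 8 members (20.5%, interval 10.8 to 35.5), against 13.5% of all genes, and these were the same 5 with ITGAL, ITGB4 and ITGB7. Of the 35 HNF4A peaks at those 8 genes, 12 had their centre in the gene body. More FOXA1 than HNF4A peaks were listed at 20 members and fewer at 17, in lists that differ in length. With the down-sampled FOXA1 list, which has as many rows as the HNF4A list, 121 FOXA1 peaks lay at 22 members (56.4%, against 53.3% of all genes), and the 162 HNF4A peaks lay at 35 (89.7%, against 77.4%). The interval of each of these shares included the share over all genes. FOXA1 peaks outnumbered FOXA1dbd peaks at 29 members and were outnumbered at none. The FOXA1 list is the longer (153247 against 28707 peaks), and 96.2% of the FOXA1dbd list overlapped a FOXA1 peak. This order therefore cannot be read as a feature of the members. Shares over all genes were not computed for the comparisons of FOXA1 counts with HNF4A, FOXA1nhaa or FOXA1dbd counts. Nor were they computed for FOXA1dbd against FOXA1rraa counts.

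The members with many FOXA1 peaks had AT-rich windows. All 9 members under 40% GC had a FOXA1 peak (84.9% of such genes did), with a median of 15.9 per 100 kb against 11.0 over all such genes. Of the 11 members at or above 50% GC, 4 had a FOXA1 peak (53.7% of such genes did), and all 11 had an HNF4A peak (89.9%). Across the 39 genes the Spearman correlation of GC content with FOXA1 peaks per 100 kb was -0.86, and across all 19229 genes it was -0.56. With HNF4A peaks per 100 kb it was 0.52 across the members and 0.51 across all genes. FOXA1 and HNF4A densities had a correlation of -0.30 across the members and -0.01 across all genes. These are descriptions across genes of the same lists, which are not independent replicates. The 9 members without a FOXA1 peak had windows of 44.5% to 55.6% GC and 52.0 to 125 kb, and the part of base composition or window length in their lack of peaks was not tested.

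**Figure D4:**
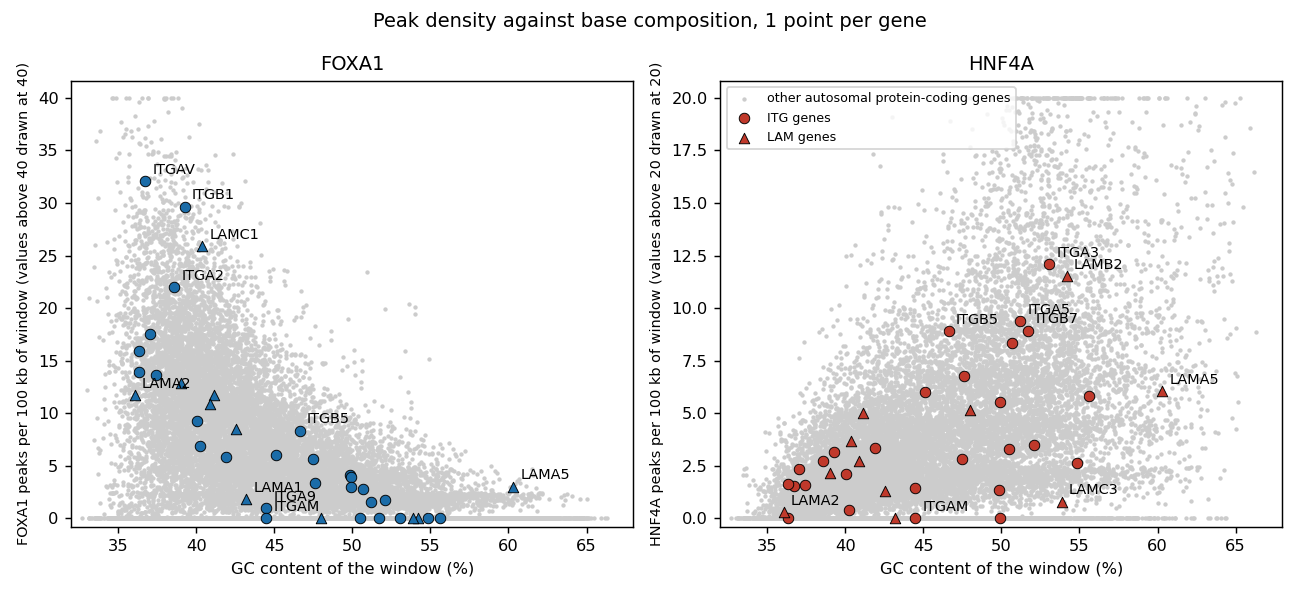
Peaks per 100 kb of window against GC content of the window, 1 point per gene, for FOXA1 (left) and HNF4A (right); 38 members are drawn, coloured circles are integrin symbols, coloured triangles laminin symbols and grey dots all other autosomal protein-coding genes. ITGAV (32.1) and ITGB1 (29.6) stand at the AT-rich end of the FOXA1 panel, and ITGA3 (12.1) and LAMB2 (11.5) among GC-rich genes in the HNF4A panel.

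Peak centres within 1 kb of an annotated transcription start, called start-site peaks, were found for FOXA1 at 14 members (35.9%), against 25.2% of all genes. For FOXA1dbd they were found at 7 members (17.9%, against 7.74%), for FOXA1nhaa at 12 (30.8%, against 19.9%) and for FOXA1rraa at 9 (23.1%, against 14.9%). For HNF4A they were found at 23 members (59.0%, against 48.8%). Of these 5 shares, that of FOXA1dbd alone had an interval (8.98% to 32.7%) that left out the share over all genes. The 7 FOXA1dbd genes were ITGA4, ITGA5, ITGAV, ITGB1, ITGB5, LAMA4 and LAMB4. The HNF4A genes with most start-site peaks were ITGB5 with 5, ITGA3 with 4 and ITGA5 with 3. ITGA7, ITGA11, ITGAE, ITGAV, ITGB1, ITGB8, LAMA4, LAMA5, LAMB2 and LAMB3 had 2 each. ITGA1, ITGA2, ITGA6, ITGA8, ITGB3, LAMA2, LAMA3, LAMB1 and LAMC1 had 1 each. Genes with more annotated starts offer more places for such a peak, and ITGB1 with 25 starts had 7 start-site FOXA1 peaks.

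By position, 69.5% of the FOXA1 pairs lay in introns and 6.47% at start sites (6.55% over all genes). Introns held 68.6% of the FOXA1dbd, 72.6% of the FOXA1nhaa and 73.4% of the FOXA1rraa pairs. Of the HNF4A pairs 39.5% lay in introns and 26.5% at start sites (26.7% over all genes). The median distance from the peak centre to the nearest start was 13.5 kb for FOXA1 and 5.14 kb for HNF4A. Another protein-coding gene reached into the window of 29 members, and 20 of the 162 HNF4A pairs but 4 of the 541 FOXA1 pairs lay at the start of another gene and not at the member's own.

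FOXA1 peaks at the members were overlapped by a FOXA1dbd peak in 114 of 536 cases (21.3%, interval 18.0 to 24.9), against 17.5% of all autosomal FOXA1 peaks. ITGB1 held 20 of the 114, from 47 FOXA1 peaks (42.6%), and 13 of its peaks were overlapped by all 3 variants. Without ITGB1 the share was 19.2% (16 to 23), an interval that includes the share over all peaks. A FOXA1nhaa peak overlapped 244 (45.5%, 41.4 to 49.8), against 40.1%, and without LAMA2 the share was 44.2% (39.7 to 48.8). A FOXA1rraa peak overlapped 246 (45.9%, 41.7 to 50.1), against 40.1%, and without LAMA2 45.1% (40.6 to 49.7). When FOXA1rraa rows with the coordinates of FOXA1 rows were left out, the FOXA1rraa share at the members was 30.4%. The share over all FOXA1 peaks without those rows was not computed, and 40.1% is not its counterpart. The gene left out in each of these settings was the one holding most of the overlapped peaks, a choice made after seeing the data.

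All 3 variants overlapped 58 of the 536 FOXA1 peaks (10.8%, 8.46 to 13.7), against 8.32% of all FOXA1 peaks. No variant overlapped 186 (34.7%, 30.8 to 38.8), against 41.1%. ITGB1 held 13 of the 58 peaks overlapped by all 3 variants, and that share was not recomputed without ITGB1. Among members with at least 10 FOXA1 peaks the share without a variant ran from 6.25% at LAMB4 (1 of 16) to 64.7% at ITGB8 (11 of 17). It was 30.4% at LAMA2, 33.3% at ITGAV, 38.3% at ITGB1 and 45.2% at LAMC1. In the other direction, 115 of the 116 FOXA1dbd peaks at the members overlapped a FOXA1 peak (99.1%, against 96.2% of that list). The exception was the intronic ITGA11 peak whose sequence is shown, which has an AP-1 core and no forkhead core. FOXA1 peaks overlapped 243 of the 379 FOXA1nhaa peaks (64.1%, against 58.5%) and 243 of the 271 FOXA1rraa peaks (89.7%, against 86.9%). Of the FOXA1nhaa peaks outside FOXA1, LAMA2 held the highest number, 29 of its 69, while ITGA9 had 8 of its 10 and ITGA5 all 3 outside.

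HNF4A peaks overlapped 19 of the 536 FOXA1 peaks (3.54%, 2.28 to 5.47), against 1.70% of all FOXA1 peaks. ITGB5 held 5 of the 19, LAMC1 3, and LAMA3 and LAMA4 2 each. Without ITGB5 the share was 2.69% (1.61 to 4.46), an interval that includes 1.70%. Seen from the HNF4A list, 20 of 162 peaks overlapped a FOXA1 peak (12.3%, 8.14 to 18.3), against 6.81%. At ITGB5 11 of the 16 HNF4A peaks lay outside FOXA1 peaks and the rest overlapped one. The share seen from the HNF4A list was not recomputed without ITGB5. The upstream ITGBL1 site shown was also listed for FOXA1dbd and FOXA1rraa.

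**Figure D5:**
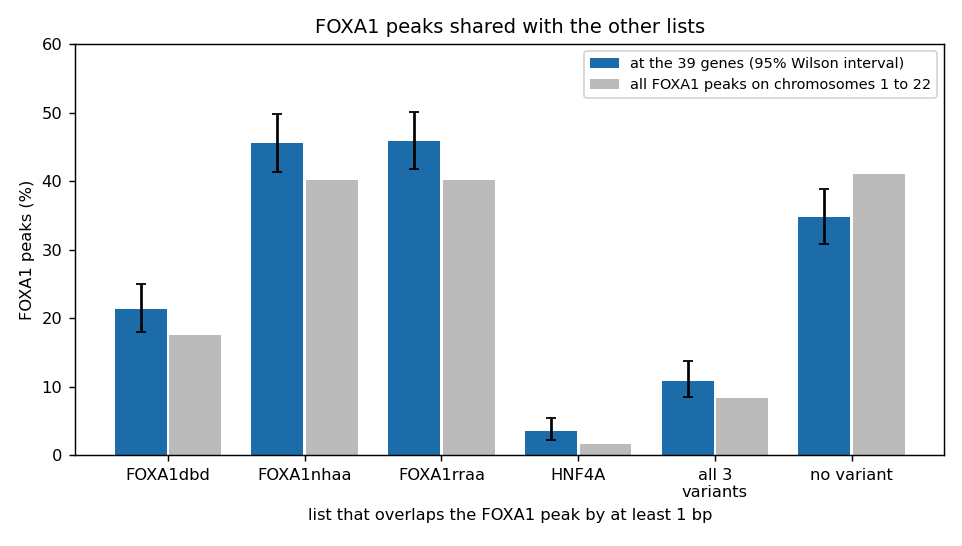
Share of FOXA1 peaks overlapped by at least 1 bp by each other list, by all 3 variants and by no variant, at the 39 genes (blue, with 95% Wilson intervals) and over all FOXA1 peaks on chromosomes 1 to 22 (grey). The blue bars lie above the grey ones for each list, and below for no variant (34.7% against 41.1%).

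A forkhead core stood in the central 200 bp of 88 FOXA1 peaks at the members (16.4%), against 18.2% of all FOXA1 peaks. It stood in 22 FOXA1dbd peaks (19.0%, against 22.1%), 50 FOXA1nhaa peaks (13.2%, against 13.6%), 50 FOXA1rraa peaks (18.5%, against 20%) and 7 HNF4A peaks (4.32%, against 3.25%). The FOXA1 peaks with a core were spread over 23 of the 30 members with a FOXA1 peak, with 9 of 79 at LAMA2, 8 of 47 at ITGB1 and 8 of 37 at ITGA1. An AP-1 core stood in 37 FOXA1 peaks (6.90%, against 7.98%), 24 FOXA1nhaa peaks (6.33%, against 7.51%) and 23 FOXA1rraa peaks (8.49%, against 8.74%). The FOXA1dbd and HNF4A peaks held it more often, in 24 FOXA1dbd peaks (20.7%, against 18.6%) and 35 HNF4A peaks (21.6%, against 18.2%). The HNF4 core was in 0 of 162 HNF4A peaks, which allows a share of up to 1.85% by a limit of 3 counts (2.32% by the Wilson interval), against 0.985% of the whole list. The interval of each of these 11 shares at the members included the share over its list.

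The median FOXA1 score was 130 against 124 in the list, and that of FOXA1dbd 58 against 61. For FOXA1nhaa it was 95 against 89, for FOXA1rraa 113 against 106 and for HNF4A 107 against 99. Of the FOXA1 peaks at the members 22.2% were among the 20% of the list with the highest scores, a class that holds 20.2% of the list because of ties. The same share was 15.5% for FOXA1dbd (20.5% of the list), 24.3% for FOXA1nhaa (20.4%), 22.9% for FOXA1rraa (20.04%) and 22.2% for HNF4A (20.02%). Of the 271 FOXA1rraa rows at the members, 168 have the coordinates of FOXA1nhaa rows and 83 those of FOXA1 rows. The FOXA1rraa median and share are therefore not a separate measure of score.

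Genes that work with the members were described for comparison. Of 24 genes for proteins at the integrin tail and focal adhesions, 20 had a FOXA1 peak (83.3%, against 77.2% of all genes) and 23 an HNF4A peak (95.8%, against 77.4%), with a median of 2.56 FOXA1 peaks per 100 kb and of 51.0% GC. Those with the most FOXA1 peaks were PTK2, the focal adhesion kinase, with 85 and VCL, vinculin, with 44. Of 19 genes for basement membrane components and laminin partners, 15 had a FOXA1 peak (78.9%) and all 19 an HNF4A peak, with a median of 4.68 FOXA1 peaks per 100 kb. DST, a cytolinker of hemidesmosomes, had 152 FOXA1 peaks and FN1, fibronectin, 22. The 42 autosomal collagen genes, which include some of these partners, had a FOXA1 peak in 39 cases (92.9%) and a median of 4.36 per 100 kb, beside 4.1 for the members and 4.0 for all genes. Window lengths differed between these groups. The median was 98.3 kb for the focal adhesion genes, 129 kb for the basement membrane genes and 173 kb for the collagen genes. It was 122 kb for the members and 67.6 kb for all genes. The part of window length in these shares was not tested.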

How the data were processed

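Values were the authors' deposited peak lists for 5 HALO-tagged constructs in BJ cells. The authors' FOXA1 list gives a score per peak. The other deposited lists give a score, a fold enrichment (a ratio) and −log10 p and q values per peak. The submitters' processing notes name Bowtie2 2.3.4.1, Picard, GATK 4.2.6.0, bedtools 2.27.1, MACS2 2.2.7.1 and deepTools 3.5.0 without roles, and whether libraries were pooled is not given in the sources used here. The file names give hg19, and no autosomal peak ended beyond its GRCh37 chromosome (0 in each of the 5 lists). Peaks, genes (GENCODE 44 lifted to GRCh37) and sequence were joined with Python 3.11.15, pandas 2.3.3, numpy 2.4.6 and pysam 0.24.0, with overlaps of at least 1 bp, start sites within 1000 bp and cores in the central 200 bp. The code was tested on simulated intervals, and 1600 of 1600 checks gave the known answer. The members and gene lists were chosen with earlier results of these data known. The text names, per role, the 3 genes with the most FOXA1 peaks, every gene without one, those with FOXA1dbd or HNF4A start-site peaks, the extremes of FOXA1 density and the highest-scoring peaks of each class, and says where a name was chosen later. Each construct has 1 list, so counts are described beside those of all genes, without a test. H2B libraries were not used here. The values of 1 member are not reported here, although totals over the 39 genes include it. Other windows, overlaps, score limits and list lengths were tried, and their effect is given at the end.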

Additional observations from a re-analysis of the deposited data

How the results depend on the processing

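Of 100 recomputed main counts and shares, 70 stayed within 1.5 times the count or inside the interval of the share, and 30 moved. Keeping the 50% of each list with the highest scores left 277 FOXA1, 55 FOXA1dbd, 204 FOXA1nhaa, 144 FOXA1rraa and 90 HNF4A peaks at the members, and start-site peaks at 8 members for FOXA1, 4 for FOXA1rraa and 15 for HNF4A. Under the same limit the share of FOXA1 peaks overlapped was 13.4% for FOXA1dbd, 35.7% for FOXA1nhaa and 2.17% for HNF4A. With every list limited to its 28831 highest scores, the members held 109 FOXA1, 121 FOXA1nhaa and 121 FOXA1rraa peaks, and the overlap was 37.6% for FOXA1dbd and 34.9% for FOXA1nhaa. The down-sampled FOXA1 list left 121 peaks. These settings keep fewer peaks by construction. Start sites taken within 2500 bp gave 12 members for FOXA1dbd, 19 for FOXA1nhaa and 15 for FOXA1rraa. Requiring peak centres within 200 bp gave an overlap of 36.0% for FOXA1nhaa, 40.3% for FOXA1rraa and 2.24% for HNF4A, and requiring 50% of the shorter peak gave 2.24% for HNF4A. Without FOXA1 rows the FOXA1rraa overlap was 30.4%. A central window of 100 bp held a forkhead core in 8.77% of FOXA1, 10.3% of FOXA1dbd, 7.12% of FOXA1nhaa, 8.86% of FOXA1rraa and 1.85% of HNF4A peaks at the members. Apart from the share of genes with a down-sampled FOXA1 peak, no share over all genes or a whole list was computed under these settings. Whether the members moved relative to all genes therefore cannot be read from these values.

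Of 390 counts for single members with the gene body alone or 50 kb on either side, 265 stayed within 1.5 times and 125 moved. No paired analysis was possible because the lists carry no replicate number, and no setting could leave out a library of a construct. The lists give no read counts, so a peak missed for lack of depth cannot be told from a site that was not bound, and the shares describe these lists and not biological variation.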
